A study of Anopheles coluzzii and Anopheles merus with 32 samples.

Results

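AGAP004581, AGAP004582 and AGAP004583 are 3 genes with successive identifiers that are described as an inducible Hsp70 cluster of Anopheles mosquitoes. They were chosen by these identifiers, 3 of the 11025 in the deposited expression table, with their high level in saltwater-exposed An. merus already known. That level is therefore given as a description, with no test. The Hsp70 name came with the choice of genes, and no annotation used here lists these identifiers, so the name was not checked.

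The study compared An. coluzzii with An. merus, as whole larvae, to ask how saltwater (SW) changes mRNA levels against freshwater (FW). All larvae grew up in FW and, at 18 h or 66 h after hatching, were moved for 6 h to FW or SW. The 8 groups were An. coluzzii at 18 h in FW, at 18 h in SW, at 66 h in FW and at 66 h in SW, and An. merus at 18 h in FW, at 18 h in SW, at 66 h in FW and at 66 h in SW. Each group held 4 polyA-selected RNA libraries, and each library came from a pool of 35 to 50 larvae; the labels give neither the salinity nor whether the pools of a group were separate cultures. The p-values below thus cover the spread between these libraries only.

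Hsp70 proteins are chaperones that bind unfolded stretches of other proteins and release them in cycles driven by ATP. Inducible Hsp70 genes are known in Drosophila for very low transcription at rest and rapid transcription after heat and other stresses that damage proteins, through heat shock factor. They often lie in tandem groups of closely alike copies, and salinity stress is among the conditions under which Hsp70 induction is known in many animals.

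The libraries held 3769859 to 16633623 reads. Levels are read counts relative to library size (CPM), scaled by a trimmed-mean factor (TMM) that evens out libraries dominated by different genes. In these units 3 reads correspond to 0.224 to 0.321 CPM in An. merus at 66 h in FW and to 0.298 to 0.441 CPM at 18 h in FW. All 48 replicate pairs differed beyond sampling noise, with chi-square values of 5.36 to 50.3 per degree of freedom. No library was thus taken as a repeat run of another, and each was counted as its own. This check cannot show whether the pools were separate cultures. Because closely alike copies can share reads, and the sources used here do not say how reads with several alignments were treated, the split of reads among the 3 genes is uncertain. Gene lengths were not used here, so levels are compared between groups and not between genes. In whole larvae, a change in the number of cells that express a gene and a change in RNA per cell cannot be told apart.

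All 3 genes were low in FW in both species and high in An. merus in SW. AGAP004582 had at most 4 reads in any FW library, and AGAP004581 had up to 21. The summed level of the 3 genes in An. merus was 2.68 ± 0.739 CPM (SD, n = 4) in FW and 101.9 ± 17.8 CPM in SW at 18 h. At 66 h it was 1.39 ± 0.491 CPM in FW and 197.6 ± 46.9 CPM in SW. In An. coluzzii the sum was 1.40 ± 0.428 CPM in FW and 2.57 ± 2.01 CPM in SW at 18 h, and 1.35 ± 0.461 CPM in FW and 4.80 ± 2.47 CPM in SW at 66 h. The means ordered as An. merus SW at 66 h, An. merus SW at 18 h, An. coluzzii SW at 66 h, An. merus FW at 18 h, An. coluzzii SW at 18 h, and then the other 3 FW groups. The 2 An. merus SW groups did not overlap any other group. They did not overlap each other, at 129.3 to 236.3 and 85.0 to 126.0 CPM, with the closest libraries 1.03 times apart. Such orders were common over all genes tested. In An. merus in SW, 28.5% had all 66 h libraries above all 18 h libraries. All SW libraries were above all FW libraries for 25.1% at 18 h and 22.8% at 66 h. Below the An. merus SW groups each group overlapped its neighbour in the order of the means, and An. coluzzii in SW at 66 h ran from 2.53 to 7.08 CPM.

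**Figure D1:**
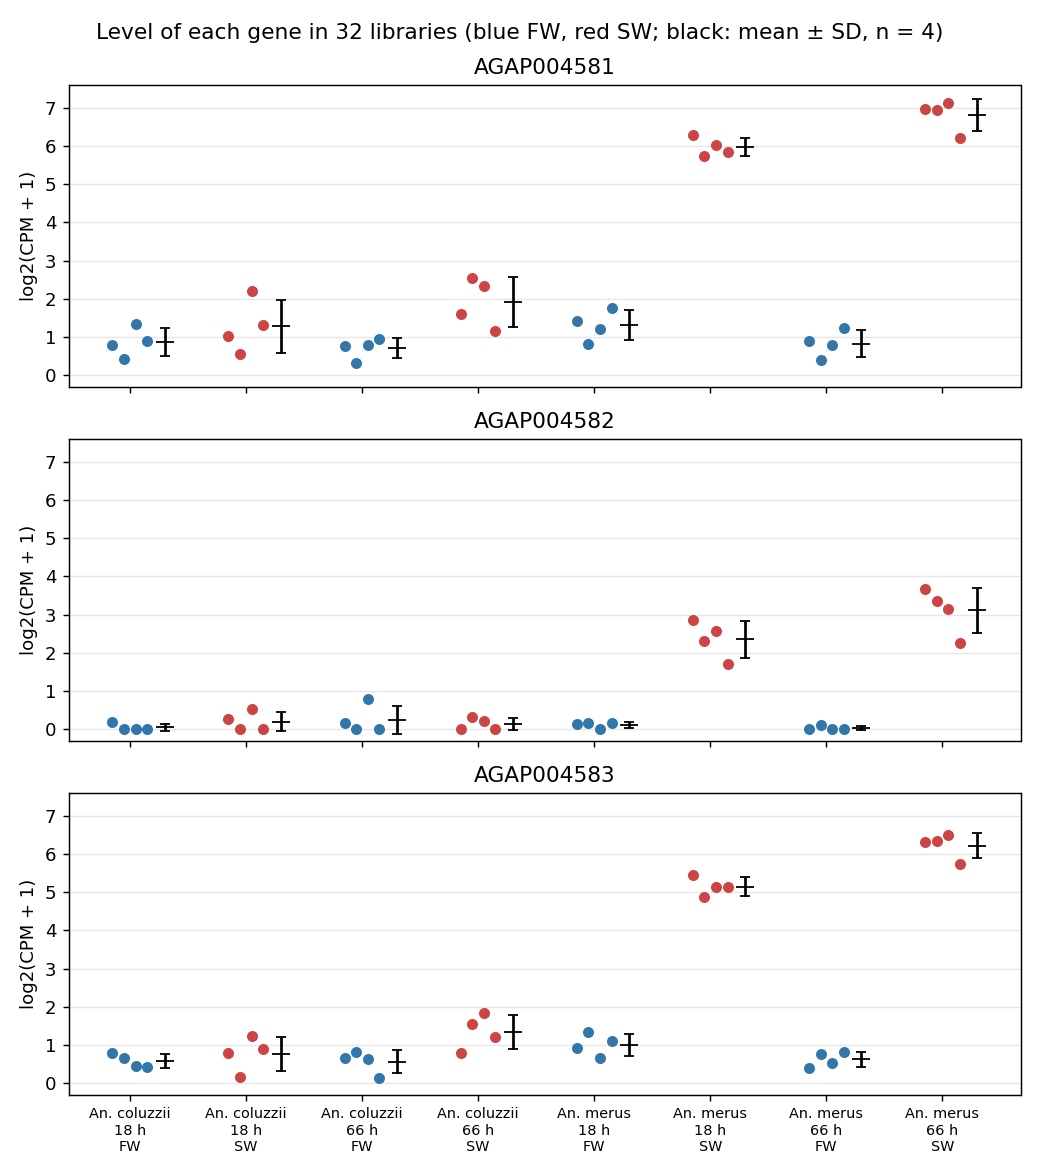
Level of each of the 3 genes, as log2(CPM + 1) on the vertical axis, in the 32 libraries by group on the horizontal axis, with blue points for FW, red points for SW and black marks for the mean ± SD of 4 libraries. The An. merus SW libraries stand above every other library for each gene.

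AGAP004581 held the most reads of the 3 genes. In An. merus at 18 h its 4 FW libraries read 1.69, 0.772, 1.32 and 2.41 CPM and its 4 SW libraries 76.7, 52.9, 64.4 and 56.8 CPM. At 66 h the FW libraries read 0.857, 0.308, 0.746 and 1.35 CPM and the SW libraries 123.5, 122.6, 139.6 and 73.2 CPM. Every SW library was far above every FW library of its age, and replicate 4 was the lowest SW library at 66 h. The ratio of group means was 40.5 at 18 h, with the lowest SW library 21.9 times the highest FW library. At 66 h the ratio of means was 140.6, and the lowest SW library was 54.1 times the highest FW library. The fold changes on the log2(CPM + 1) scale were 4.67 ± 0.30 (SE) at 18 h and 5.98 ± 0.30 at 66 h; adding 1 CPM understates the change of genes with so few reads in FW.

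AGAP004583 ran in parallel at a lower CPM. In An. merus at 18 h the FW libraries read 0.894, 1.54, 0.588 and 1.15 CPM and the SW libraries 43.1, 28.1, 34.3 and 34.0 CPM. At 66 h they read 0.321, 0.693, 0.448 and 0.773 CPM in FW and 78.0, 79.7, 88.8 and 52.3 CPM in SW. The FW and SW libraries were again wholly apart at both ages, and replicate 4 was again the lowest in SW at 66 h. The ratio of means was 33.4 at 18 h and 133.7 at 66 h, and the log2 fold changes were 4.14 ± 0.22 and 5.59 ± 0.22.

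AGAP004582 was the least read of the 3 genes. In An. merus at 18 h the FW libraries read 0.0993, 0.129, 0 and 0.115 CPM, from 3 reads in all, and the SW libraries read 6.20, 3.98, 4.91 and 2.26 CPM, from 204 reads. At 66 h the FW libraries read 0, 0.077, 0 and 0 CPM, from 1 read in all, and the SW libraries 11.6, 9.27, 7.87 and 3.81 CPM, from 228 reads. FW was thus at or under the level of a few reads and SW was above it in each library. Pooled over the libraries of a group, the SW level was 46.2 times the FW level at 18 h, with an exact 95% counting interval of 15.6 to 226. At 66 h the pooled ratio was 382.8, with an interval of 68.0 to 1.519e+04 that covers counting error only. The log2 fold changes were 2.24 ± 0.23 and 3.08 ± 0.23, held down by the added 1 CPM.

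All 4 An. merus SW libraries were above all 4 FW libraries for 25.1% of the 10505 genes tested at 18 h and for 22.8% at 66 h, so an order without overlap was common in these data and nothing is read from it for 3 genes chosen on this contrast. By log2 fold change with 1 CPM added, among the genes tested, AGAP004581 ranked 2 at 18 h and 1 at 66 h from the top, AGAP004583 ranked 5 and 2, and AGAP004582 ranked 60 and 16. On whole reads by edgeR AGAP004582 had the largest log2 fold change of the 3, 5.38 at 18 h and 7.88 at 66 h. The genes at a log2 fold change of 4 or more numbered 5 at 18 h, 3 at 66 h and 3 at both ages. Those 3 were AGAP004581, AGAP004583 and AGAP009460, a gene of no annotation used here that was named after its values were seen. Its mean was 1.16 CPM in FW against 117.1 CPM in SW at 18 h, with 2.18 against 120.0 CPM at 66 h for the same gene, AGAP009460. A log2 fold change of at least 2 was reached by 92 genes at 18 h, 123 at 66 h and 47 at both ages, and the 3 cluster genes are among each of these.

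**Figure D2:**
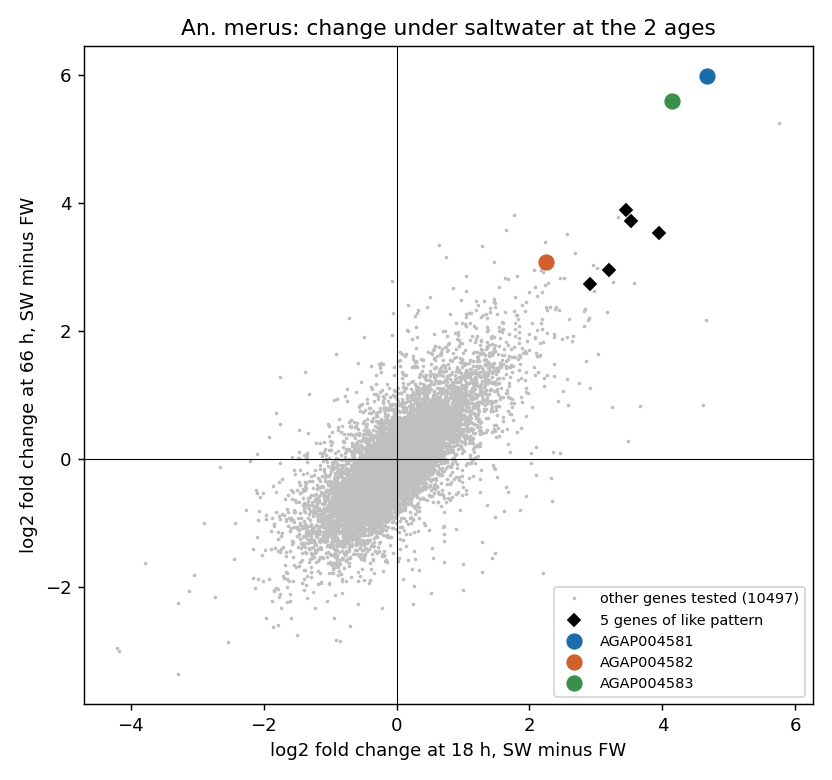
Log2 fold change (SW minus FW, log2(CPM + 1) scale) of each gene tested in An. merus at 18 h on the horizontal axis and at 66 h on the vertical axis, with the 3 cluster genes as coloured circles and the 5 genes of most similar pattern as black diamonds. AGAP004581 and AGAP004583 lie at the far upper right, at 4.67 and 4.14 on the horizontal axis, and AGAP004582 lies at 2.24.

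The An. coluzzii response bears on the question of whether the less salt-tolerant species induces the same genes, and its libraries were not those that chose the members. At 18 h AGAP004581 read 0.737, 0.340, 1.51 and 0.874 CPM in FW and 1.05, 0.473, 3.58 and 1.49 CPM in SW. AGAP004583 read 0.737, 0.567, 0.360 and 0.336 CPM in FW and 0.735, 0.118, 1.34 and 0.851 CPM in SW. AGAP004582 had 1 read in the 4 FW libraries and 6 reads in the 4 SW libraries. The FW and SW libraries overlapped for each gene. The log2 fold change of AGAP004581 was 0.41 ± 0.30 (95% interval -0.20 to 1.03, limma adjusted p = 0.389). AGAP004582 and AGAP004583 entered the genes tested only through their An. merus SW libraries, so their An. coluzzii values carry no p. Their log2 fold changes were 0.15 ± 0.23 (-0.31 to 0.62) and 0.19 ± 0.22 (-0.26 to 0.64). Adding 1 CPM held the AGAP004582 value and its interval near 0. Its pooled SW level was 8.42 times the FW level, with an exact 95% counting interval of 1.02 to 387.4. On whole reads its log2 fold change was 2.49 by edgeR and 2.71 by DESeq2. AGAP004581 did not pass the adjusted threshold of 0.05 by limma, which 8.25% of all genes tested passed in either direction. None of the 3 genes had all SW libraries above all FW libraries, an order seen in 4.02% of genes.

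At 66 h AGAP004581 rose in An. coluzzii. Its FW libraries read 0.708, 0.253, 0.721 and 0.915 CPM, from 6, 1, 4 and 10 reads, and its SW libraries read 2.04, 4.89, 4.08 and 1.22 CPM, from 11, 78, 48 and 12 reads. All SW libraries were above all FW libraries, by a margin of 1.33 times between the closest libraries, an order that 5.32% of genes had in this comparison. The ratio of means was 4.71 and the log2 fold change 1.21 ± 0.30 (interval 0.60 to 1.82, limma adjusted p = 0.0261), in a comparison where 2.24% of genes passed in either direction. The call was lost when FW replicate 1, FW replicate 2, SW replicate 2 or SW replicate 3 was left out, at adjusted p = 0.0507, 0.0928, 0.138 and 0.0970. It was also lost with 4 CPM added in place of 1 (limma adjusted p = 0.0691), and when limma was fitted to the FW and SW libraries of this age and species alone (adjusted p = 0.0730). Over the alternatives tried, its adjusted p ran from 0.00307 to 0.138.

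AGAP004583 read 0.590, 0.759, 0.541 and 0.0915 CPM in FW and 0.742, 1.94, 2.55 and 1.32 CPM in SW in An. coluzzii at 66 h. The lowest SW library fell just under the highest FW library, and the other SW libraries were above all FW libraries. The log2 fold change was 0.79 ± 0.22 (interval 0.34 to 1.24), and on whole reads it was 2.02 by edgeR and 2.04 by DESeq2. As at 18 h, the AGAP004582 and AGAP004583 values are a description with no p, and no response is claimed from them. AGAP004582 had 5 reads in the FW libraries, 4 of them in replicate 3, and 6 in the SW libraries. Its log2 fold change was -0.10 ± 0.23 (interval -0.56 to 0.37). The median log2 fold change of all genes tested was 0.00467.

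**Figure D3:**
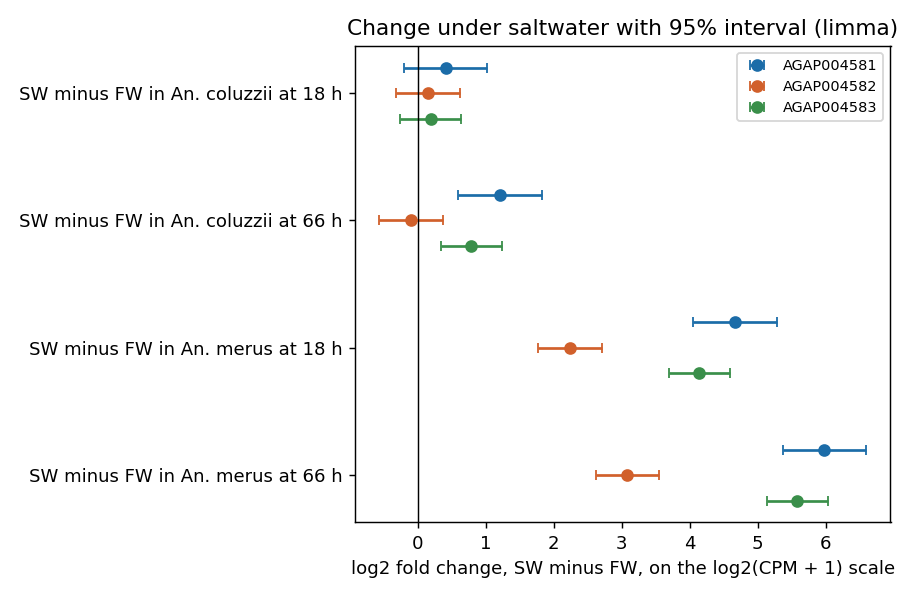
Log2 fold change of each gene (SW minus FW, log2(CPM + 1) scale, horizontal axis) in the 4 combinations of species and age, with bars for the 95% interval from limma. The An. merus values run from 2.24 to 5.98 and the An. coluzzii values from -0.10 to 1.21.

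The saltwater response of AGAP004581 did not pass as different between the ages in An. coluzzii. The difference of its log2 fold changes, 66 h minus 18 h, was 0.80 ± 0.42 (interval -0.07 to 1.66, limma adjusted p = 0.584). For AGAP004582 the difference was -0.25 ± 0.32 (-0.91 to 0.41) and for AGAP004583 0.60 ± 0.31 (-0.03 to 1.23), both given with no p. Only 0.0762% of genes passed this limma test in either direction, and the intervals include differences as large as the 66 h response itself. On whole reads the AGAP004582 difference was -2.83 by edgeR and -3.16 by DESeq2, outside its limma interval. The AGAP004581 response passing at 66 h and not at 18 h therefore does not show a dependence on age.

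The difference between the species in SW was large at both ages, given here as a description. At 18 h the An. merus mean was 38.0 times the An. coluzzii mean for AGAP004581 and 45.8 times for AGAP004583. At 66 h these ratios were 37.6 and 45.6. For AGAP004582 the ratio of pooled levels was 21.9 at 18 h (counting interval 9.90 to 60.4) and 59.5 at 66 h (26.9 to 163.9), from 6 An. coluzzii reads at each age. Every An. merus SW library was above every An. coluzzii SW library for all 3 genes at both ages, an order that 25.9% of genes showed at 18 h and 30.2% at 66 h. The saltwater response of An. merus exceeded that of An. coluzzii by 4.26 ± 0.42, 2.09 ± 0.32 and 3.95 ± 0.31 on the log2 scale at 18 h for AGAP004581, AGAP004582 and AGAP004583. The excess at 66 h was 4.78 ± 0.42, 3.18 ± 0.32 and 4.79 ± 0.31 in the same order. For AGAP004582 at 66 h, with 1 read in An. merus in FW, it was 1.58 with 4 CPM added in place of 1, 5.06 with 0.25 CPM added, 8.22 by edgeR and 8.79 by DESeq2.

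Levels in FW were low in both species. The An. merus FW libraries are part of the contrast on which the genes were chosen, so differences that use them are given with no p. The log2 difference at 18 h, An. merus minus An. coluzzii, was 0.45 ± 0.30 for AGAP004581 (95% interval -0.17 to 1.06), 0.07 ± 0.23 for AGAP004582 (-0.40 to 0.53) and 0.43 ± 0.22 for AGAP004583 (-0.01 to 0.88). At 66 h it was 0.13 ± 0.30 for AGAP004581 (-0.49 to 0.74), -0.21 ± 0.23 for AGAP004582 (-0.68 to 0.26) and 0.07 ± 0.22 for AGAP004583 (-0.38 to 0.52). Adding 1 CPM shrinks differences at such low levels, so these values and intervals are a description only. They do not show that the species were equal in FW. Over all genes, 46.8% passed limma between the species at 18 h and 51.0% at 66 h in either direction. On whole reads the AGAP004583 difference at 18 h was larger, 1.17 by edgeR and 1.21 by DESeq2, from 4 to 12 reads per An. merus library and 5 per An. coluzzii library. The AGAP004582 difference at 66 h was -2.45 by edgeR and -2.78 by DESeq2, from 1 An. merus read and 5 An. coluzzii reads in all.

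Age in FW gave no call for AGAP004581 in An. coluzzii. There its log2 difference, 66 h minus 18 h, was -0.16 ± 0.30 (limma adjusted p = 0.673), while 58.6% of genes passed. For AGAP004582 and AGAP004583 the log2 differences were 0.19 ± 0.23 and -0.02 ± 0.22, given with no p. In An. merus the log2 differences of AGAP004581, AGAP004582 and AGAP004583 were -0.48 ± 0.30, -0.09 ± 0.23 and -0.38 ± 0.22, given with no p, while 50.8% of all genes passed. On whole reads the AGAP004582 difference in An. coluzzii was 2.40 by edgeR and 2.70 by DESeq2, from 1 read at 18 h and 5 at 66 h. In An. merus it was -1.57 and -1.73, from 3 reads at 18 h and 1 at 66 h. Rescaling all libraries to 1 common sum moved the median of all genes to -0.464 in this An. merus comparison; then AGAP004581 read -0.74 and AGAP004583 -0.60.

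In An. merus in SW the mean of each gene was higher at 66 h than at 18 h. The ratio of means, 66 h over 18 h, was 1.83 for AGAP004581, 1.88 for AGAP004582 and 2.14 for AGAP004583. The libraries of the 2 ages overlapped for AGAP004581 and AGAP004582 and did not for AGAP004583, an order that 28.5% of genes showed in this direction. The log2 differences were 0.84 ± 0.30, 0.75 ± 0.23 and 1.07 ± 0.22. These sizes depend on the TMM factor, whose mean was 1.01 at 18 h and 0.692 at 66 h in An. merus in SW. At a common sum the differences were 0.29, 0.28 and 0.52, against a median over all genes of -0.506 there and -0.0457 with TMM. The increase in response with age, 66 h minus 18 h, was 1.32 ± 0.42, 0.84 ± 0.32 and 1.45 ± 0.31 for AGAP004581, AGAP004582 and AGAP004583, and 1.03, 0.39 and 1.12 after rescaling. On whole reads it was 1.87, 2.51 and 1.99 by edgeR and 1.88, 2.72 and 2.04 by DESeq2, so that its size for AGAP004582 rested on the method.

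The proportions of AGAP004581 and AGAP004583 were close among the An. merus SW libraries of an age. That of AGAP004582 varied more relative to its mean. In percentage points its SD lay above that of AGAP004581 and below that of AGAP004583 at both ages. The AGAP004582 share came from 28 to 85 reads per library at 18 h and 21 to 80 at 66 h. AGAP004581 gave 61.6% ± 0.725 (SD, n = 4) of the reads of the 3 genes in An. merus at 18 h in SW, AGAP004582 gave 4.19% ± 1.18 and AGAP004583 gave 34.2% ± 1.63, of 4848 reads in all. The shares at 66 h were 57.9% ± 1.01, 4.03% ± 1.13 and 38.1% ± 1.66, of 5587 reads. The AGAP004581 share ran from 60.9% to 62.2% over the libraries at 18 h and from 56.6% to 59.1% at 66 h. No such share was computed for other genes, and the split of reads among the 3 genes is uncertain, so nothing is read from this difference. The AGAP004582 share ran from 2.43% to 4.92% and from 2.95% to 5.46%. In the other 6 groups the genes had 38 to 233 reads in all, and the exact 95% binomial intervals were correspondingly wide. Over all 8 groups, pooled shares ran from 55.3% to 66.7% for AGAP004581, from 1.59% to 13.2% for AGAP004582 and from 28.9% to 41.3% for AGAP004583. The upper end for AGAP004582 came from 5 of 38 reads in An. coluzzii at 66 h in FW, with an interval of 4.41% to 28.1%.

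**Figure D4:**
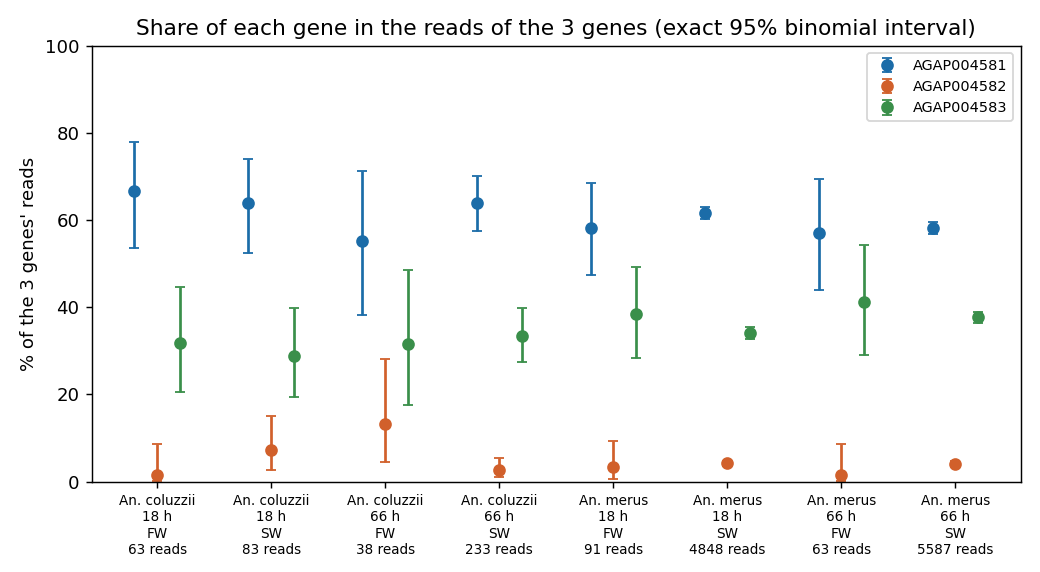
Share of each gene in the reads of the 3 genes, pooled over the 4 libraries of a group (vertical axis, percent), by group on the horizontal axis with the number of reads under each, and bars for the exact 95% binomial interval. The intervals are narrow in the An. merus SW groups, with 4848 and 5587 reads, and wide elsewhere.

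The An. merus SW libraries shared 1 extreme at each age across the 3 genes, and their order was otherwise mixed. At 18 h replicate 1 was the highest for each of them, and it was the highest for 7 of the 89 other genes (7.87%) that were at least 4-fold higher in SW. At 66 h replicate 4 was the lowest for each of them, as it was for 78 of the 120 other such genes (65.0%). Without that replicate the log2 fold changes at 66 h were 6.19, 3.36 and 5.75 for AGAP004581, AGAP004582 and AGAP004583.

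The cluster was also set beside the identifiers on either side of it. Of the 13 identifiers from AGAP004576 to AGAP004588, 12 were in the table, and 9 of these are outside the cluster; identifiers that follow one another are taken as neighbours from their numbers alone. In An. merus under SW, 1 of the 9 was higher and 5 were lower at 18 h by limma at an adjusted p under 0.05, with a median log2 fold change of -0.37, and the counts were the same at 66 h with a median of -0.75. Over all genes tested, 25.2% were higher and 26.5% lower at 18 h, with a median of -0.02, and 25.8% were higher and 31.4% lower at 66 h, with a median of -0.06. At equal library sums 0 of the 9 were higher and 6 lower at 18 h, and the counts at 66 h stayed at 1 and 5. In An. coluzzii 2 of the 9 were lower at 18 h, where 3.55% of all genes were, and none passed at 66 h, when 2.24% of all genes did in either direction.

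The 2 identifiers that flank the cluster differed from it and from each other. In An. merus at 18 h the FW mean of AGAP004580 was 5.03 ± 0.823 CPM (SD, n = 4) and its SW mean 4.02 ± 0.553 CPM. It and was lower in SW at 66 h, with 4.08 ± 0.590 CPM in FW against 1.67 ± 0.0757 CPM in SW. Its log2 fold changes were -0.26 ± 0.16 (limma adjusted p = 0.170) and -0.92 ± 0.16 (adjusted p = 1.34e-05). AGAP004584 rose at 18 h from 42.2 ± 2.28 to 55.3 ± 3.18 CPM, and at 66 h from 46.8 ± 5.99 to 65.7 ± 3.21 CPM, with log2 fold changes of 0.38 ± 0.10 (limma adjusted p = 0.00141) and 0.49 ± 0.10 (adjusted p = 8.61e-05). At equal library sums the AGAP004584 changes were 0.17 (limma adjusted p = 0.145) and 0.24 (adjusted p = 0.0313), so its call at 18 h was lost. AGAP004580 at 18 h was then -0.45 (limma adjusted p = 0.0176), so that call was gained. At both ages the flanking values lay well under the 2.24 to 5.98 of the cluster.

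**Figure D5:**
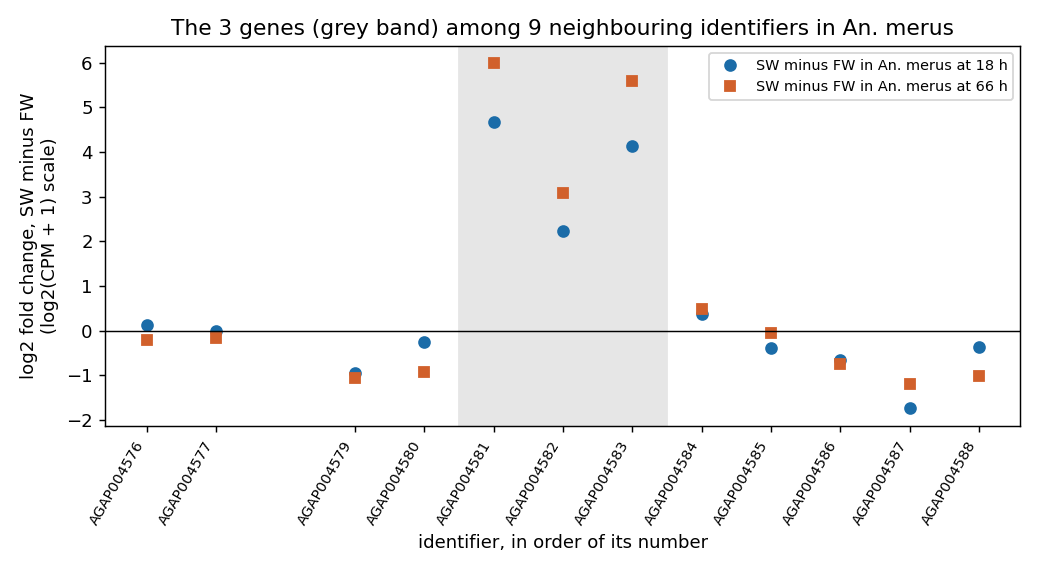
Log2 fold change (SW minus FW, log2(CPM + 1) scale, vertical axis) in An. merus at 18 h and 66 h for the 3 cluster genes, in the grey band, and 9 neighbouring identifiers in order of their numbers on the horizontal axis. The neighbours run from -1.74 to 0.49 and the cluster genes from 2.24 to 5.98.

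Genes outside the cluster were ranked by the likeness of their profile, measured as the root mean square distance on the log2 scale between centred group means over the 8 groups. The closest was AGAP006386, at a distance of 0.360, with a Pearson r of 0.993 over the 8 group means given as a description. By r alone the list differs: AGAP006386 ranked 4, behind AGAP005777 (r 0.997), AGAP010737 and AGAP006771, which ranked 510, 141 and 248 by distance. In An. merus the level of AGAP006386 at 18 h was 14.8 ± 1.77 CPM in FW against 182.8 ± 31.3 CPM in SW. At 66 h the FW libraries ran from 14.5 to 19.3 CPM and the SW libraries from 209.5 to 250.9 CPM. In An. coluzzii the FW and SW means were 12.4 ± 1.10 against 18.2 ± 0.998 CPM at 18 h, with 14.3 ± 1.62 against 26.5 ± 8.55 CPM at 66 h. Its FW levels were thus well above those of the cluster genes, on a scale not corrected for length, and its An. merus log2 fold changes, 3.53 at 18 h and 3.72 at 66 h, were below those of AGAP004581 and AGAP004583.

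The next 4 were AGAP010854 (distance 0.578, r 0.957), AGAP004149 (0.606, 0.957), AGAP010398 (0.637, 0.966) and AGAP009437 (0.665, 0.944), which ranked 109, 108, 64 and 154 by r. Their An. merus log2 fold changes under SW lay between 2.74 and 3.95. AGAP010854 had the highest levels of the 5, with 461.2 ± 70.6 CPM in An. merus in SW at 18 h against 50.1 ± 10.9 CPM in FW. AGAP004149 had a higher SW mean at 18 h, 82.0 ± 4.76 CPM, than at 66 h, 59.0 ± 4.78 CPM, the reverse of the cluster genes. The members themselves lay 0.464, 0.736 and 0.282 from their own mean profile, in order of identifier, so AGAP006386 was closer to that mean than AGAP004581 and AGAP004582 were.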

How the data were processed

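Total RNA from pools of whole larvae was DNase treated and made into polyA-selected TruSeq v2 libraries, per the labels' protocols. Per the submitters' processing notes the authors used Trimmomatic, Bowtie2, TopHat2, HTSeq and edgeR, with no version or role given. The sources used here do not state the genome build. The deposited values are a signal, CPM scaled by TMM, for 11025 identifiers in 32 libraries. Groups were read from the sample labels. Dividing each column by the value of 1 read gave whole reads for 100% of values within 0.01 reads, and TMM factors recomputed from them differed by at most 4.7e-10. Reads carry no molecular identifiers, so intervals cover counting error only.

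Genes averaging 1 CPM or more (10505, with 520 left out) were tested with limma 3.58.1 (trend, robust) on log2(CPM + 1), with 8 group means, 24 residual degrees of freedom and Benjamini-Hochberg adjustment within each comparison at 0.05. All 3 members passed this filter, AGAP004582 and AGAP004583 only through An. merus in SW, since over the other 24 libraries their means were 0.104 and 0.833 CPM against 1.43 CPM for AGAP004581. The code was tested on simulated data. Alternatives were another pseudocount, no filter, equal sums, the compared libraries alone, edgeR 4.0.16 and DESeq2 1.42.0 on the recovered reads, and leaving out each library.

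Plain CPM had been assumed in planning, and limma was kept for the TMM-scaled signal. Tests of the members on An. merus FW libraries had been planned and are given without p, since those libraries belong to the contrast that chose the genes. Tests of AGAP004582 and AGAP004583 in An. coluzzii had also been planned and are given without p, because of the filter. The members, lists and comparisons were chosen with earlier results of these data known. The genes named by rule are the 3 members, the 5 of most similar profile and the neighbours by identifier. AGAP009460 was named after its values were seen, as were AGAP005777, AGAP010737 and AGAP006771, which ranked highest by r. The reference table used here matched 0 of the 11025 identifiers, so no chaperone list, promoter or sequence is reported.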

Additional observations from a re-analysis of the deposited data

Results flagged for a closer look

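In 24 sets of 4 libraries (3 genes in 8 groups), 3 held a library far from the other libraries by Dixon's test. Its chance rate of about 1 set in 20 assumes continuous values. It cannot be applied to sets of so few reads, and nothing is read from these flags. All 3 were AGAP004582 in FW. Its highest library read 0.147 CPM in An. coluzzii at 18 h, from 1 read, with the other libraries at 0. In An. coluzzii at 66 h the highest read 0.721 CPM, from 4 reads. In An. merus at 66 h the highest read 0.077 CPM, from 1 read, with the other libraries at 0.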

How the results depend on the processing

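Of 786 alternative values for 45 results, 0 changed sign against a called value. With 0.25 CPM added, the An. merus SW responses of AGAP004581, AGAP004582 and AGAP004583 became 5.20, 3.71 and 4.80 at 18 h, then 6.81, 4.87 and 6.55 at 66 h. With 4 CPM added they were 3.58, 1.01 and 2.94, and 4.59, 1.55 and 4.09, so their size, not their direction, follows the pseudocount. On whole reads edgeR gave 5.30, 5.38 and 5.03, and 7.16, 7.88 and 7.02, and DESeq2 gave 5.36, 5.62 and 5.08, and 7.23, 8.33 and 7.12. Rescaling to equal sums gave 2.63 for AGAP004582 and 5.16 for AGAP004583 at 66 h, and moved the median of all genes to -0.265. The FW age differences of AGAP004581 and AGAP004583 in An. merus became -0.74 and -0.60, and the SW age differences of the 3 genes 0.29, 0.28 and 0.52.

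In An. coluzzii at 66 h in SW, AGAP004581 missed the threshold with 4 CPM added (0.57) and in its own libraries alone (1.21); leaving out 1 library gave 0.99 to 1.46. AGAP004583 was 0.79 with no filter, 2.02 by edgeR and 2.04 by DESeq2, and leaving out 1 library gave 0.63 to 0.97. Its species difference in FW at 18 h was 1.17 by edgeR and 1.21 by DESeq2. Leaving out FW replicates 1 and 2 of An. coluzzii at 18 h together, chosen after seeing the data, changed no call. No paired analysis was possible because the labels give no replicate numbers shared between groups. Lists of chaperone genes and promoter motifs were not run, for want of annotation. Depth limits the FW values, most of all AGAP004582, with 22 reads over the 24 libraries outside An. merus in SW.

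The differences between the species in SW, again for AGAP004581, AGAP004582 and AGAP004583, moved likewise. At 18 h they were 5.30, 3.53 and 5.28 with 0.25 CPM added, 3.58, 0.98 and 3.02 with 4 CPM, 5.21, 4.403 and 5.49 by edgeR, and 5.27, 4.56 and 5.55 by DESeq2. At 66 h AGAP004582 and AGAP004583 gave 4.53 and 5.39 with 0.25 CPM, 5.77 and 5.40 by edgeR, and 6.01 and 5.49 by DESeq2; the 3 genes gave 4.07, 1.52 and 3.79 with 4 CPM and 4.43, 2.52 and 4.39 at equal sums. The species difference in response at 18 h was 3.29 and 4.52 for AGAP004582 and AGAP004583 with 0.25 CPM, 2.89 and 4.32 by edgeR, 2.91 and 4.34 by DESeq2, and 3.39, 0.96 and 2.86 for the 3 genes with 4 CPM. At 66 h it was 5.06 and 5.20 with 0.25 CPM and 2.72 and 4.39 at equal sums for AGAP004582 and AGAP004583, 4.02, 1.58 and 3.77 for the 3 genes with 4 CPM, and for AGAP004582 8.22 by edgeR and 8.79 by DESeq2. The age difference in response in An. merus was 1.87, 2.51 and 1.99 by edgeR, 1.88, 2.72 and 2.04 by DESeq2, and 0.39 and 1.12 for AGAP004582 and AGAP004583 at equal sums. Except where shown, the cause was not tested.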
